A study of Mus musculus with 15 samples.

Results

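The expression of 10 receptors of the tumor necrosis factor (TNF) superfamily was followed in mouse bone marrow-derived macrophages (BMDMs), precursors that become osteoclasts when given RANKL, the ligand of the receptor RANK, and that respond to lipopolysaccharide (LPS), a component of the bacterial outer membrane, as inflammatory cells. The receptors are *Tnfrsf1a*, *Tnfrsf1b*, *Tnfrsf9*, *Tnfrsf10b*, *Tnfrsf12a*, *Tnfrsf14*, *Tnfrsf21*, *Cd40*, *Fas* and *Ltbr*, taken by gene name out of 20089 genes with values in the table. RNA-seq covered 15 samples in 5 groups of 3, all of them BMDMs of wild-type C57BL/6 mice given M-CSF for 3 days per the labels. Control cells received neither stimulus, and the other groups received RANKL for 4 h, RANKL for 72 h (3 days), LPS for 4 h or LPS for 72 h. The design asks which transcripts respond to RANKL apart from those that LPS also moves. No group was kept for 72 h in M-CSF alone, so the time of stimulus and the time in culture cannot be told apart. The labels do not say whether replicates came from separate mice or cultures, so p-values measure only the spread between these samples, which may be technical.

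Most receptors of this superfamily bind ligands of the TNF family through cysteine-rich repeats outside the cell. Some carry a death domain inside the cell, through which they recruit the adaptors TRADD and FADD and can start caspase activation, and among the 10 these are *Tnfrsf1a*, *Fas*, *Tnfrsf10b* and *Tnfrsf21*. The others, *Tnfrsf1b*, *Cd40*, *Ltbr*, *Tnfrsf9*, *Tnfrsf12a* and *Tnfrsf14*, have no death domain and bind TRAF adaptors, which lead to the NF-κB pathways. RANK itself (*Tnfrsf11a*), the receptor of RANKL on osteoclast precursors, belongs to the same family and signals through TRAF adaptors as well. In macrophages, TNF and CD40 signalling are known for their part in inflammation, and TNF also acts on osteoclast precursors beside RANKL.

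In the GENCODE M21 annotation of the mouse genome build GRCm38, *Tnfrsf1a* lies on chromosome 6 from 125349362 to 125362484 and *Ltbr* on the same chromosome from 125306571 to 125313885, with 35476 bases between them. On chromosome 4, *Tnfrsf1b* lies from 145213463 to 145246870, *Tnfrsf9* from 150914562 to 150946102 and *Tnfrsf14* from 154921933 to 154928563. *Tnfrsf12a* lies on chromosome 17 from 23675445 to 23677468, and *Tnfrsf21* on the same chromosome from 43016555 to 43089189. *Cd40* is on chromosome 2 from 165055627 to 165072948, *Tnfrsf10b* on chromosome 14 from 69767472 to 69784411, and *Fas* on chromosome 19 from 34290666 to 34327772. All 10 are annotated as protein coding. *Tnfrsf9* overlaps *Camta1* on the opposite strand and *Fas* overlaps the small RNA gene *Gm27818* on the same strand, and since the use of strand in counting is not given in the sources used here, reads from such overlaps cannot be assigned to a single gene.

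RefSeq promoters (build GRCm38.p6) were matched for 8 of the 10 receptors with 9 start sites in all, and no entry was matched for *Cd40* and *Tnfrsf10b*. The 250 bases upstream of the start site are shown for *Tnfrsf1b* and *Fas*, which were higher under LPS at 4 h, and for *Ltbr* and *Tnfrsf21*, which were lower. Capitals mark matches on either strand to a loose κB-type motif, GGG and CC with 5 bases of any kind between. The sequences run 5′ to 3′ on the strand of the gene.
Tnfrsf1b, chr4:145246871-145247120, minus strand: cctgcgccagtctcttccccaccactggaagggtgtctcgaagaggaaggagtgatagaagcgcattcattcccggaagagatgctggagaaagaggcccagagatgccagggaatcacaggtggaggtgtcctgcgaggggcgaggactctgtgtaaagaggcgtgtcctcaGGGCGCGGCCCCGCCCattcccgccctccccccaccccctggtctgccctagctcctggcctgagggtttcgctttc
Fas, chr19:34290409-34290658, plus strand: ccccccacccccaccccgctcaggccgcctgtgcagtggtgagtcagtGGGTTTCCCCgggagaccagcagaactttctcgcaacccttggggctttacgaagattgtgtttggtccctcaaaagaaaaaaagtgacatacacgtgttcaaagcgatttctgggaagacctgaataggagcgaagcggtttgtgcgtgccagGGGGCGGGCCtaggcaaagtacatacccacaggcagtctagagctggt
Ltbr, chr6:125313886-125314135, minus strand: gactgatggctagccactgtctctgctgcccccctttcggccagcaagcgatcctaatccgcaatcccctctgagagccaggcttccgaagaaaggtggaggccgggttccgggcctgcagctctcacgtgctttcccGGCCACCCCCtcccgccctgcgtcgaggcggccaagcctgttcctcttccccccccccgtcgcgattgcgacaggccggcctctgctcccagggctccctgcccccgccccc
Tnfrsf21, chr17:43016305-43016554, plus strand: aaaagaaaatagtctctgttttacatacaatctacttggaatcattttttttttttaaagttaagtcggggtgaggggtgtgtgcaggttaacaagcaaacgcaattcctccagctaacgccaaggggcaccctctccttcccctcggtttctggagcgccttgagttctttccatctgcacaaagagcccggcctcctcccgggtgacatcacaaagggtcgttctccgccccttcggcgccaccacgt

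The loose κB-type motif matched 7 of the 9 receptor start sites, and 45.8% of all 32851 promoters of this length matched it as well. In *Tnfrsf1b*, 3 overlapping matches spanned positions -77 to -62 from the start site, and in *Fas* the matches lay at -202 to -193 and -48 to -39. *Ltbr* held a match at -112 to -103, and the promoter of *Tnfrsf21* held none. A stricter κB-type motif, GGG, 2 bases of any kind and TTTCC, is contained in the loose motif and matched 1.41% of all promoters and 1 of the 9 start sites, the second start of *Tnfrsf9*, at -43 to -34. A STAT-type motif, TTCNNNGAA, matched 4 of the 9 start sites against 7.02% of all promoters, and these were in *Tnfrsf1b*, *Tnfrsf9*, *Tnfrsf1a* and *Fas*. An interferon response type motif, GAAA and GAAA with 2 bases of any kind between, matched 2 of 9 against 2.98%, at -10 to -1 in *Tnfrsf1b* and at -64 to -55 in *Tnfrsf14*. All motifs were searched on both strands. These are matches of letters and do not show binding.

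Levels are given as FPKM, the fragments on a gene scaled to its exon length and to the mapped reads, so levels of different genes may be compared. Each sample held 18306184 to 20330207 fragments on the genes of the table. All 8 macrophage markers, among them *Csf1r* and *Adgre1*, were above 0 in every sample, with a sum of 7360 to 9075 FPKM in control. The 9 neutrophil markers summed to 7912 to 24341 FPKM in control, 7512 to 21789 FPKM in RANKL 4 h and 6667 to 21330 FPKM in LPS 4 h. The levels in these groups therefore cannot be assigned to macrophages alone, and the part of neutrophil RNA in them was not tested. Of the listed osteoclast markers, 9 of 10 were higher than in control in RANKL 72 h, and all 9 markers of the LPS response with values were higher in LPS 4 h, which goes with the labels. The replicate LPS 72 h 3 stood apart from its group, with summed macrophage markers of 17491 FPKM against 6086 and 7876 FPKM in replicates 1 and 2, and summed stromal markers of 589 FPKM against 133 and 143 FPKM. For LPS 72 h, values without it are therefore given beside those of the receptors and their signalling lists. In bulk samples, fewer cells of a type and less RNA per cell cannot be told apart.

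**Figure D1:**
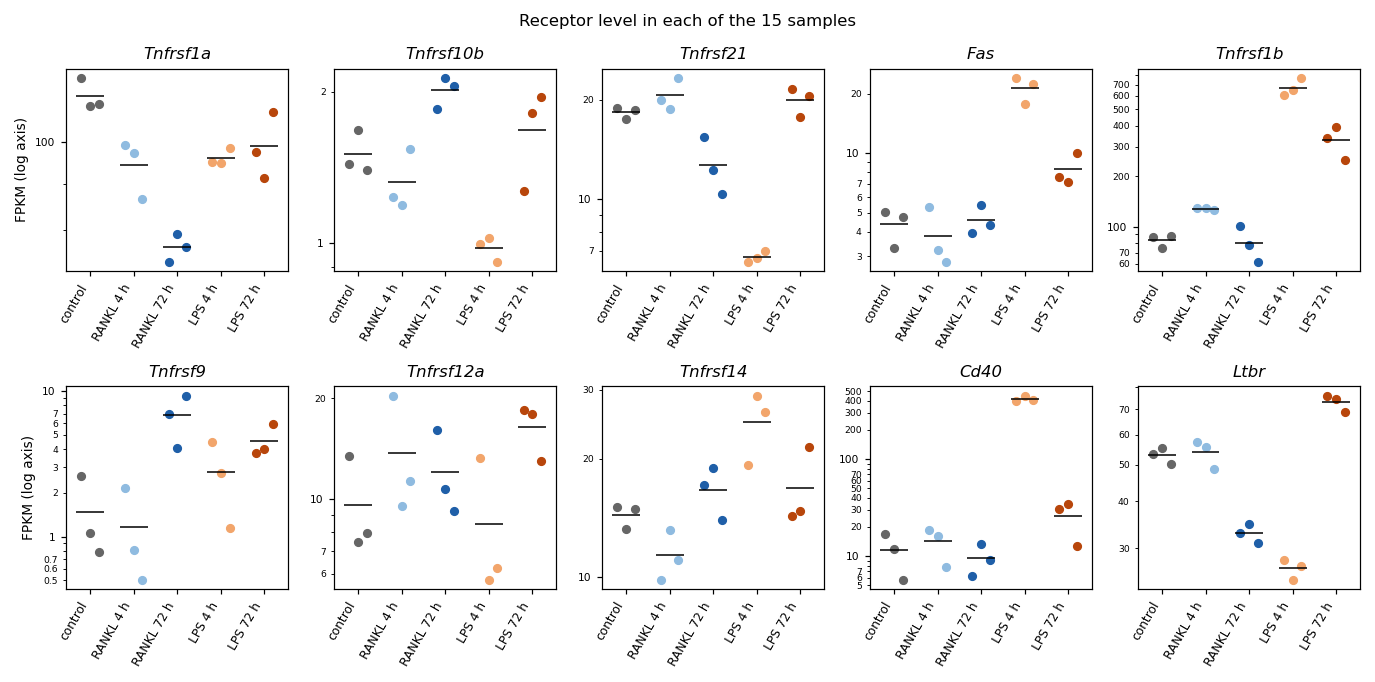
Level of each of the 10 receptors in each of the 15 samples, in FPKM on a log axis, with a panel per receptor and its own axis range. Points are samples and bars are group means (n = 3). In LPS 4 h, *Cd40* and *Tnfrsf1b* stood above all samples of the other groups, and *Tnfrsf21* and *Ltbr* stood below them.

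In control BMDMs, the most abundant of the 10 receptor transcripts was *Tnfrsf1a*, which encodes the TNF receptor TNFR1, at 112 ± 4.54 FPKM (SD, n = 3). It was followed by *Tnfrsf1b* at 82.9 ± 7.33 FPKM, *Ltbr* at 52.9 ± 2.55 FPKM and *Tnfrsf21* at 18.3 ± 0.741 FPKM, with no overlap between neighbours in this order. *Tnfrsf14*, *Cd40* and *Tnfrsf12a* came next at 14.4, 11.6 and 9.61 FPKM, and neighbours among them overlapped. *Fas* stood below these at 4.36 ± 0.912 FPKM. *Tnfrsf10b* (1.51 FPKM) and *Tnfrsf9* (1.48 FPKM) were lowest and overlapped, with 89 to 114 and 37 to 131 fragments per control sample, respectively.

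The order differed in the stimulated groups. With LPS for 4 h, *Tnfrsf1b* (673 ± 86.0 FPKM) and *Cd40* (415 ± 30.7 FPKM) ranked first and second, each apart from its neighbour, and *Tnfrsf1a* (96.1 ± 2.02 FPKM) came next. *Ltbr*, *Tnfrsf14* and *Fas* followed at 26.6, 24.9 and 21.4 FPKM, and *Tnfrsf14* overlapped with both of the others, which did not overlap with each other. In RANKL 72 h, *Tnfrsf1b* (79.9 ± 19.6 FPKM) and *Tnfrsf1a* (76.5 ± 2.75 FPKM) overlapped at the top, and the 5 neighbouring pairs from *Tnfrsf14* down to *Fas* overlapped as well. In LPS 72 h, the order began with *Tnfrsf1b* (327 ± 72.7 FPKM), *Tnfrsf1a* (98.9 ± 8.46 FPKM) and *Ltbr* (73.2 ± 3.86 FPKM), all apart from their neighbours. *Tnfrsf10b* remained lowest in all groups but control and RANKL 4 h, where it overlapped with *Tnfrsf9*. Summed over the 10 receptors, the level was 309 ± 19.1 FPKM without stimulus, 342 ± 22.8 FPKM in RANKL 4 h, 254 ± 24.1 FPKM in RANKL 72 h, 1276.5 ± 86.4 FPKM in LPS 4 h and 593 ± 74.0 FPKM in LPS 72 h.

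Values were compared with limma on log2(FPKM + 0.1) over 11743 genes, a scale on which changes of low genes come out too small. Changed genes were those with an unadjusted p under 0.05 and a fold over 1.5 or under 0.66, and adjusted p-values are by Benjamini-Hochberg over all these genes. The comparisons with control share the same 3 control samples. In RANKL 4 h, 1 of the 10 receptors was higher and 0 were lower, and 2.56% of all tested genes were changed (1.21% higher, 1.35% lower). The 159 lower genes became 67 without RANKL 4 h replicate 3 and 258 without RANKL 4 h replicate 1. With RANKL for 72 h, 1 was higher and 1 lower, with 29.2% of all genes changed (20.2% higher, 9.04% lower). In the LPS 4 h group, 4 were higher and 2 lower, with 49.8% of all genes changed (8.75% higher, 41% lower). With LPS for 72 h, 5 were higher and 0 lower, with 31% of all genes changed (14.9% higher, 16.1% lower). With an adjusted p under 0.05 in place of the unadjusted, 0, 2, 6 and 3 receptors were changed in these 4 comparisons, against 0.119%, 24.2%, 48.1% and 27.4% of all genes. Counted in either direction, 2 of 10 receptors in the RANKL 72 h group is below the share of all genes, and 6 of 10 in LPS 4 h is near it. By direction in LPS 4 h, 4 of 10 higher stands against 8.75% of all genes and 2 of 10 lower against 41%. In LPS 72 h, 5 of 10 stands against 31% by the unadjusted test and 3 of 10 against 27.4% by the adjusted. These counts were not tested as a set.

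After 4 h of LPS the median log2 fold change was 0.27 over the 10 receptors and -0.52 over all tested genes, so values relative to the median gene differ from those given. Centred on the median gene of each sample, 2049 genes were higher and 1675 lower in LPS 4 h, in place of 1028 and 4818, and 5 receptors were higher and 1 lower. Given RANKL for 72 h, centring gave 1488 genes higher and 1668 lower in place of 2369 and 1062, and 1 receptor higher and 3 lower. The medians over the receptors and over all genes were -0.08 and 0.0016 in RANKL 4 h, 0.0011 and 0.16 in RANKL 72 h, and 0.64 and 0.075 in LPS 72 h.

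**Figure D2:**
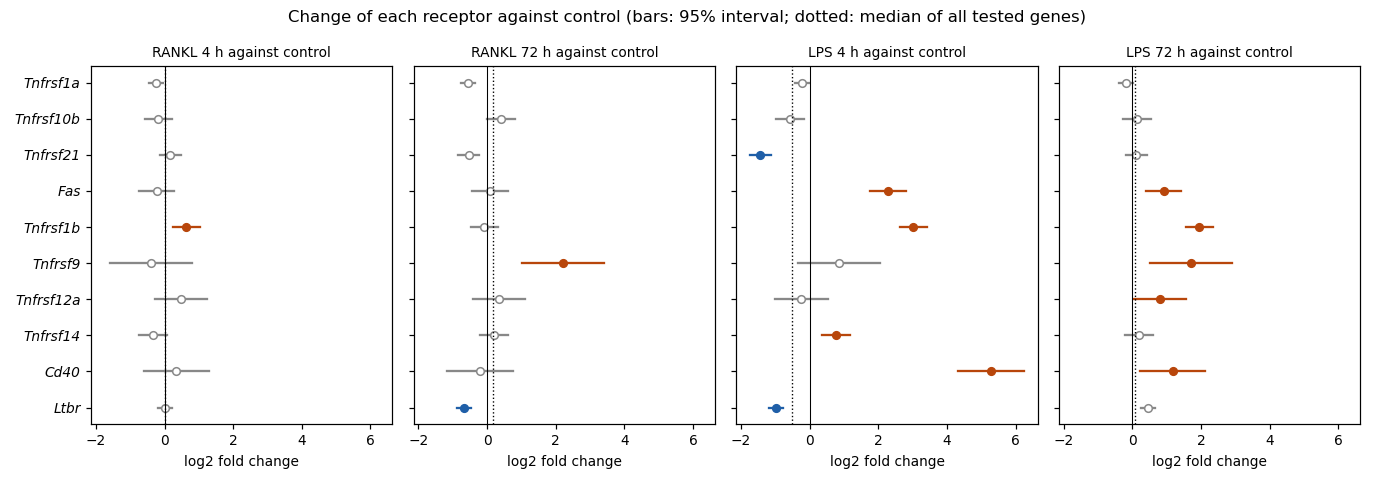
Log2 fold change of each receptor against control in the 4 stimulated groups (points), with 95% intervals from limma (bars). Filled points passed the fold and unadjusted p thresholds (orange higher, blue lower), and the dotted line is the median of all tested genes. In LPS 4 h, 4 receptors lay above and 2 below control past the thresholds.

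Among the receptors with a death domain, *Tnfrsf1a* was the least variable. It stood at 118, 109.6 and 110.01 FPKM in the control replicates and at 94.95, 94.90 and 98.4 FPKM in LPS 4 h. In RANKL 72 h it stood at 73.8, 79.3 and 76.6 FPKM, below all control samples. This difference was -0.55 on the log2 scale (SE 0.09, limma adjusted p = 0.000741), a fold of 0.681, just short of the fold threshold. Centred on the median gene it was -0.77 and passed. With RANKL for 4 h (99.2, 97.2 and 86.6 FPKM) the log2 difference was -0.25 (SE 0.09, limma adjusted p = 0.722), in LPS 4 h -0.23 (adjusted p = 0.0493) and in LPS 72 h (97.5, 91.3 and 108 FPKM) -0.19 (adjusted p = 0.133, and -0.25 with adjusted p = 0.0346 without replicate 3). All stimulated samples thus stood below the control samples, by less than the fold that defined a change. Centred on the median gene, the difference in LPS 4 h was 0.34, in the other direction.

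*Fas*, the receptor of FASL that can trigger apoptosis, rose under LPS and not under RANKL. It stood at 5.03, 3.32 and 4.73 FPKM in control and at 24.1, 17.7 and 22.4 FPKM in LPS 4 h. All LPS 4 h samples were above all control samples, and the log2 fold change was 2.28 (SE 0.24, limma adjusted p = 4.03e-06), or 4.86-fold. In the LPS 72 h group, *Fas* stood at 7.60, 7.17 and 10.1 FPKM, again above control, at a log2 fold change of 0.92 (SE 0.24, limma adjusted p = 0.00959) and 0.77 without replicate 3. The RANKL samples, at 5.36, 3.22 and 2.82 FPKM at 4 h and 3.96, 5.46 and 4.34 FPKM at 72 h, overlapped with control. Their log2 differences had 95% intervals of -0.74 to 0.29 and -0.44 to 0.60.

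*Tnfrsf21*, known as death receptor DR6, was lower after 4 h of LPS, where *Fas* was higher. It stood at 18.8, 17.4 and 18.6 FPKM in control and at 6.48, 6.64 and 6.99 FPKM in LPS 4 h. The log2 fold change was -1.43 (SE 0.14, limma adjusted p = 2.08e-06), a fold of 0.37, and -0.87 when centred on the median gene. At 72 h of LPS it overlapped with control, at 21.6, 17.8 and 20.5 FPKM, with a log2 difference of 0.12 (0.099 without replicate 3). With RANKL for 72 h it stood at 15.5, 12.3 and 10.4 FPKM, below all control samples, with a log2 difference of -0.54 (SE 0.14, limma adjusted p = 0.0109) that was short of the fold threshold. Without RANKL 72 h replicate 1 it was -0.69, and centred on the median gene -0.76, and both passed. Without RANKL 72 h replicate 3 it was -0.40 (limma adjusted p = 0.0526).

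*Tnfrsf10b*, the only receptor for TRAIL with a death domain in the mouse, was low in all groups. It stood at 1.44, 1.68 and 1.40 FPKM in control and at 0.997, 1.03 and 0.919 FPKM in LPS 4 h. The LPS 4 h samples were all below control, by -0.57 on the log2 scale (SE 0.19, limma adjusted p = 0.0177), with a fold of 0.674 short of the threshold. On the recovered fragments, limma voom gave -0.62, a pseudocount of 0.01 gave -0.61 and the fit without control replicate 3 gave -0.62, all past the threshold, and after centring on the median gene the difference was -0.0016. In the RANKL 72 h group, at 1.85, 2.13 and 2.06 FPKM, all samples were above control, but the log2 difference of 0.40 was not past the threshold (SE 0.19, limma adjusted p = 0.12). After 72 h of LPS, at 1.27, 1.82 and 1.95 FPKM, it overlapped with control, with a log2 difference of 0.13 (0.018 without replicate 3).

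Of the receptors without a death domain, *Cd40* showed the largest difference of the 10 in LPS 4 h. CD40 is the receptor of CD40 ligand on antigen-presenting cells. It stood at 17.1, 11.9 and 5.71 FPKM in control and at 393, 450.3 and 402 FPKM in LPS 4 h. The log2 fold change was 5.29 (SE 0.44, limma adjusted p = 5.43e-07), or 39.0-fold, with the LPS 4 h samples far above all others. After 72 h, *Cd40* stood at 30.9, 34.2 and 12.9 FPKM, and the value of replicate 3 lay within the control range. The log2 fold change was 1.18 (SE 0.44, limma adjusted p = 0.053), past the unadjusted threshold only. It was 1.62 without replicate 3, 0.74 without control replicate 3, 0.99 without LPS 72 h replicate 1 and 0.92 without LPS 72 h replicate 2, and the last 3 did not pass. Under RANKL it stood at 18.8, 16.3 and 7.83 FPKM at 4 h and at 6.24, 13.2 and 9.10 FPKM at 72 h, both overlapping with control. The 3 control values of *Cd40* spread widely, and the summed markers of the LPS response were 1094, 513 and 209 FPKM in the same control samples, in the same order. Their part in the result was not tested.

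*Tnfrsf1b*, which encodes the TNF receptor TNFR2, was higher than control in 3 of the 4 stimulated groups. It stood at 86.6, 74.5 and 87.7 FPKM in control and at 604, 647 and 769.5 FPKM in LPS 4 h. The log2 fold change was 3.02 (SE 0.18, limma adjusted p = 3.16e-08), or 8.09-fold, with no overlap. At 72 h of LPS it stood at 337, 394 and 249.7 FPKM, still above all control samples, at a log2 fold change of 1.96 (SE 0.18, limma adjusted p = 9.46e-06) and 2.14 without replicate 3. In the RANKL 4 h group it stood at 129.9, 129 and 125 FPKM, above all control samples. Its log2 fold change was 0.63 (SE 0.18), or 1.55-fold, which passed at an unadjusted limma p of 0.00427 but not after adjustment over all genes (adjusted p = 0.412). Without control replicate 2 it was 0.55, below the fold threshold. Given RANKL for 72 h, at 101, 77.4 and 61.7 FPKM, it overlapped with control.

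*Ltbr*, the lymphotoxin β receptor, which activates the non-canonical NF-κB pathway, was lower after LPS at 4 h and after RANKL at 72 h. It stood at 53.3, 55.1 and 50.1 FPKM in control and at 28.0, 24.8 and 26.9 FPKM in LPS 4 h, and the RANKL 72 h samples held 32.9, 34.8 and 31.0 FPKM. Neither group overlapped with control. The log2 fold change was -0.99 (SE 0.10, limma adjusted p = 2.02e-06) in LPS 4 h and -0.68 (SE 0.10, limma adjusted p = 0.000227) in RANKL 72 h. Both depended on the scaling of the samples, since the LPS 4 h value was -0.42 when centred on the median gene and the RANKL 72 h value -0.57 when samples were scaled to equal sums, and neither then passed the fold threshold. In LPS 72 h it stood at 76.1, 74.6 and 68.8 FPKM, above all control samples, with a log2 difference of 0.47 (SE 0.10, limma adjusted p = 0.00228, and 0.51 without replicate 3) short of the fold threshold. Given RANKL for 4 h, at 57.2, 55.6 and 48.6 FPKM, it overlapped with control.

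*Tnfrsf9*, a costimulatory receptor known as CD137, was higher at 72 h under both stimuli. It stood at 2.60, 1.06 and 0.788 FPKM without stimulus, 7.01, 4.09 and 9.30 FPKM in RANKL 72 h and 3.78, 3.97 and 5.97 FPKM in LPS 72 h. All 72 h samples were above all control samples. Its log2 fold change was 2.22 (SE 0.55, limma adjusted p = 0.00882) in RANKL 72 h, or 4.66-fold. With LPS for 72 h it was 1.70 (SE 0.55, limma adjusted p = 0.0285) and 1.4998 without replicate 3. It stayed past the unadjusted threshold in all 6 fits that left out a sample of either group, but the adjusted p was over 0.05 in 5 of them, at 0.0547 to 0.105, all but the fit without control replicate 1. With LPS for 4 h (4.44, 2.74 and 1.14 FPKM) and in RANKL 4 h (2.17, 0.808 and 0.505 FPKM) it overlapped with control. The LPS 4 h difference of 0.84 (SE 0.55, limma adjusted p = 0.204) did not pass, but was 1.31 without control replicate 1, 1.35 without LPS 4 h replicate 3 and 1.41 when centred on the median gene, all past the unadjusted threshold. The other 4 fits that left out a sample gave 0.42 to 0.76 and did not pass, with the lowest value without LPS 4 h replicate 1. Its values rest on 24 to 441 fragments per sample.

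Markers of other cells differed in the 72 h samples. All 18 stromal markers were tested, 14 were higher in RANKL 72 h, and their sum was 489 to 2178 FPKM against 182 to 408 FPKM in control, with only *Lum* at 0 in any control or RANKL 72 h sample. Of 9 neutrophil markers, 5 were lower, with a sum of 1849 to 7451 FPKM against 7912 to 24341 FPKM in control. With the mean of the stromal markers as a covariate, *Tnfrsf9* was 1.44 higher on the log2 scale in RANKL 72 h (limma adjusted p = 0.0787), *Ltbr* was -0.72, and *Tnfrsf1a* (-0.62) and *Tnfrsf21* (-0.66) passed the thresholds as well. The part of the neutrophil markers was not tested. In the LPS 72 h group, all 9 neutrophil markers were lower, with a sum of 152 to 1816 FPKM, and 3 stromal markers were higher and 2 lower, or 1 higher and 5 lower without replicate 3. B cell markers were low or absent (4 of 6 lower under RANKL, 5 of 6 under LPS). Mast cell and basophil markers were low or absent as well (5 of 5 lower under both). The defining markers *Ms4a1* and *Cpa3* were at 0 in a sample of each 72 h group. Of 5 endothelial markers, 3 were lower under RANKL and 4 under LPS, or 2 without LPS 72 h replicate 3. Their sum was 3.41 to 10.9 FPKM in RANKL 72 h and 5.41 to 15.9 FPKM in LPS 72 h, against 13.6 to 21.5 FPKM in control. The highest LPS 72 h sum was that of replicate 3. Of 7 T and NK cell markers, 1 was lower under each stimulus, or 2 under LPS without replicate 3. Their part in the results at 72 h was not tested.

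*Tnfrsf14*, which encodes the herpesvirus entry mediator HVEM and binds LIGHT, was higher in LPS 4 h. It stood at 15.1, 13.2 and 14.9 FPKM in control and at 19.2, 28.9 and 26.4 FPKM in LPS 4 h. The groups did not overlap, and the log2 fold change was 0.76 (SE 0.19, limma adjusted p = 0.00337), or 1.70-fold. In RANKL 4 h (9.84, 13.2 and 11.05 FPKM) the log2 difference was -0.35 (SE 0.19, limma adjusted p = 1), which did not pass. The 72 h groups, at 17.1, 18.9 and 14.0 FPKM under RANKL and 14.3, 14.7 and 21.4 FPKM under LPS, overlapped with control, and the LPS 72 h difference was 0.015 on the log2 scale without replicate 3.

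*Tnfrsf12a*, the receptor of TWEAK known as Fn14, differed between replicates more than between most groups. It stood at 13.5, 7.44 and 7.92 FPKM without stimulus, 20.4, 9.58 and 11.4 FPKM in RANKL 4 h and 13.3, 5.75 and 6.25 FPKM in LPS 4 h. Replicate 1 was the highest in 5 of 5 groups. After 72 h of LPS, at 18.4, 18.01 and 12.97 FPKM, the log2 fold change was 0.81 (SE 0.35, limma adjusted p = 0.0914), past the unadjusted threshold only, and replicate 3 was within the control range. It was 0.65 without control replicate 2, 0.70 without control replicate 3, 0.72 without LPS 72 h replicate 1, 0.73 without LPS 72 h replicate 2 and 0.72 when centred on the median gene, and none of these passed. It was 0.97 without LPS 72 h replicate 3, and 1.07 (limma adjusted p = 0.0475) without control replicate 1, and both passed. In RANKL 72 h, at 16.2, 10.8 and 9.24 FPKM, it overlapped with control.

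**Figure D3:**
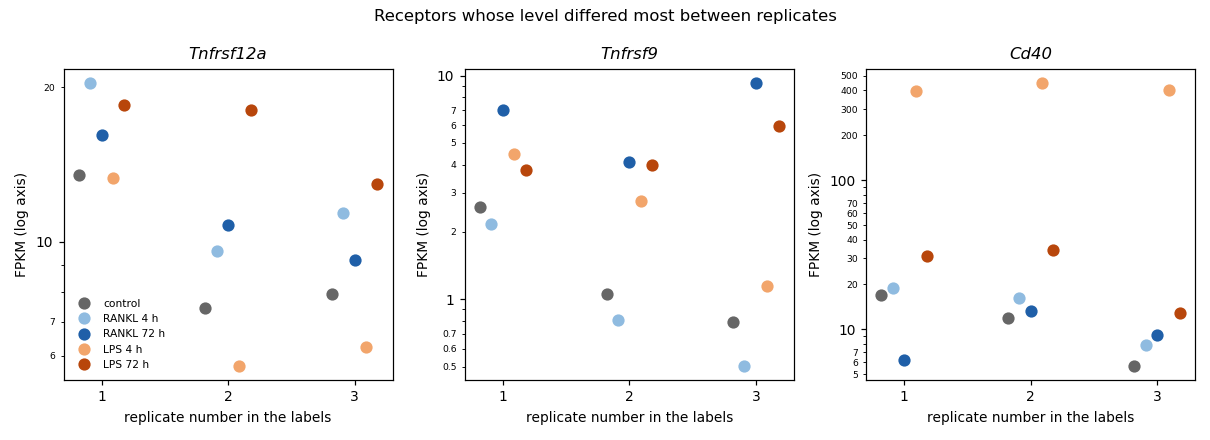
FPKM on a log axis of *Tnfrsf12a*, *Tnfrsf9* and *Cd40* by replicate number of the labels, with a point per sample coloured by group. *Tnfrsf12a* was highest in replicate 1 of all 5 groups, while *Cd40* in LPS 4 h (393 to 450.3 FPKM) lay far above every other sample.

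RANKL and LPS were next compared at the same time. At 4 h, 2 receptors were higher under RANKL than under LPS and 5 were lower, with 51.8% of all genes changed (42.5% higher, 9.31% lower; 50% either way by adjusted p). *Tnfrsf21* was higher by 1.60 (SE 0.14, limma adjusted p = 7.29e-07) and *Ltbr* by 1.01 (SE 0.10, adjusted p = 1.53e-06) on the log2 scale. *Cd40* was lower, at -4.94 (SE 0.44, limma adjusted p = 9.09e-07), as were *Fas* at -2.51, *Tnfrsf1b* at -2.39 and *Tnfrsf14* at -1.11 (SE 0.19, adjusted p = 0.000206). *Cd40*, *Fas*, *Tnfrsf1b* and *Tnfrsf14* did not overlap between the stimuli, nor did *Tnfrsf21*, *Ltbr* and *Tnfrsf10b*, the last of which was not called. The share of all genes without overlap is not given here, so this is a description only. *Tnfrsf9* was lower at -1.23 (SE 0.55) only by the unadjusted test (limma adjusted p = 0.0688), and 4 of the 6 fits that left out a sample of either group lost this call. *Tnfrsf12a*, at 0.73 higher under RANKL (SE 0.35, adjusted p = 0.088), did not pass, but passed with the replicate number as a block (limma adjusted p = 0.0038), scaled to equal sums (0.75) and without RANKL 4 h replicate 2 (0.95) or LPS 4 h replicate 1 (1.11). With the block, 3 receptors were higher and 5 lower, and of all genes 5088 were higher and 1126 lower. *Tnfrsf1a* differed by -0.03 (95% interval -0.23 to 0.17). Centred on the median gene, 1728 genes were higher and 2064 lower in place of 4989 and 1093, 1 receptor was higher and 5 lower, and *Ltbr*, at 0.45, was not called.

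At 72 h, 5 receptors were lower under RANKL than under LPS and 0 were higher, with 38.9% of all genes changed (25.1% higher, 13.8% lower; 36.1% by adjusted p). With samples centred on the median gene, 2433 genes were higher and 2147 lower in place of 2951 and 1615, and 5 receptors were lower and 0 higher. *Tnfrsf1b* was lower at -2.03 on the log2 scale (SE 0.18, limma adjusted p = 1.73e-06) and *Ltbr* at -1.15 (SE 0.10, adjusted p = 1.12e-06). *Cd40* was lower at -1.38 (SE 0.44, limma adjusted p = 0.0207), with overlap between the groups, *Fas* at -0.84 (SE 0.24, adjusted p = 0.0116) and *Tnfrsf21* at -0.66 (SE 0.14, adjusted p = 0.00175). Without LPS 72 h replicate 3 all 5 were still called, at -2.22, -1.19, -1.83, -0.69 and -0.64 for *Tnfrsf1b*, *Ltbr*, *Cd40*, *Fas* and *Tnfrsf21*, respectively. The adjusted p of *Cd40* was 0.0863 without RANKL 72 h replicate 1, 0.0815 without LPS 72 h replicate 1 and 0.0902 without LPS 72 h replicate 2. *Tnfrsf21* was not called without RANKL 72 h replicate 3 (-0.52) or with samples scaled to equal sums (-0.58). *Tnfrsf9* differed by 0.52 with a 95% interval of -0.68 to 1.71, and *Tnfrsf14* by 0.0018 with an interval of -0.40 to 0.41. Without LPS 72 h replicate 3 these were 0.72 and 0.19, *Tnfrsf12a* was at -0.63, *Tnfrsf10b* at 0.38 and *Tnfrsf1a* at -0.30, and none of these 5 was called. Of 18 stromal markers, 12 were higher under RANKL than under LPS at 72 h and 1 was lower. With their mean as a covariate, 6 receptors were lower and 0 higher, with 2829 of all genes higher and 1572 lower. *Tnfrsf9* was then at -0.34, in the other direction, and was not called.

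The later time was also set against the earlier. Under RANKL, 1 receptor was higher at 72 h than at 4 h and 3 were lower, with 28.3% of all genes changed (20.1% higher, 8.24% lower; 23.3% by adjusted p). *Tnfrsf9* was higher by 2.60 on the log2 scale (SE 0.55, limma adjusted p = 0.00367), and *Tnfrsf21*, *Tnfrsf1b* and *Ltbr* were lower at -0.71 each (limma adjusted p = 0.00243, 0.0117 and 0.000185). With samples scaled to equal sums, *Tnfrsf21* was -0.59, *Tnfrsf1b* -0.59 and *Ltbr* -0.59, all short of the fold threshold, and without RANKL 72 h replicate 3 *Tnfrsf21* (-0.57) and *Tnfrsf1b* (-0.53) were short of it as well. With equal sums, *Tnfrsf10b* (0.69) and *Tnfrsf14* (0.67) passed, and 3 receptors were higher and 0 lower. Of all 11743 genes, 2970 were then higher and 782 lower. After centring on the median gene, 1457 genes were higher and 1602 lower in place of 2361 and 968, with 1 receptor higher and 3 lower. The RANKL time comparison of these 5 receptors thus depended on the scaling, and that of *Tnfrsf9* did not.

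Under LPS, 4 receptors were higher at 72 h than at 4 h and 3 were lower, with 59.3% of all genes changed (45% higher, 14.3% lower; 58.1% by adjusted p). Those lower were *Cd40* at -4.11 (SE 0.44, limma adjusted p = 3.17e-06), *Fas* at -1.36 (SE 0.24, adjusted p = 0.000206) and *Tnfrsf1b* at -1.06 (SE 0.18, adjusted p = 0.000182), which had all been higher than control at 4 h. Those higher included *Tnfrsf21* by 1.56 and *Ltbr* by 1.46 on the log2 scale (limma adjusted p = 7.34e-07 and 8.03e-08), which had both been lower than control at 4 h. *Tnfrsf12a* was higher by 1.05 (SE 0.35, limma adjusted p = 0.0177), which it was not without LPS 4 h replicate 2 (0.83), and *Tnfrsf10b* by 0.70 (SE 0.19, adjusted p = 0.00443). Centred on the median gene, 2293 genes were higher and 3361 lower in place of 5279 and 1684, 2 receptors, *Tnfrsf21* (0.91) and *Ltbr* (0.81), were higher and 5 lower, and *Tnfrsf1a* went from 0.04 to -0.61. Without LPS 72 h replicate 3, *Cd40* was at -3.67, *Fas* at -1.51, *Tnfrsf1b* at -0.88, *Tnfrsf21* at 1.53, *Ltbr* at 1.503, *Tnfrsf12a* at 1.21 and *Tnfrsf10b* at 0.59, and all were called. *Tnfrsf14*, at -0.56, passed without LPS 72 h replicate 3 (-0.75) or LPS 4 h replicate 1 (-0.74), and *Tnfrsf9* passed without LPS 4 h replicate 1 (1.28).

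The ratio between the 2 TNF receptors was higher in all stimulated samples than in all control samples. The ratio of *Tnfrsf1b* to *Tnfrsf1a* FPKM was 0.736, 0.679 and 0.797 in the control samples. It was 1.31, 1.32 and 1.45 in RANKL 4 h and 6.36, 6.82 and 7.82 in LPS 4 h, with no overlap with control. With RANKL for 72 h it was 1.37, 0.976 and 0.806, the lowest of which was just above the highest control value, and in LPS 72 h 3.45, 4.32 and 2.31. Against control, each group gave an exact permutation p of 0.1, two-sided, the smallest that 3 samples against 3 allow, so these tests cannot reach 0.05. The ratio was 1.84 times that of control in RANKL 4 h and 9.47 times in LPS 4 h. It is formed within each sample, so scaling of the samples does not enter it.

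**Figure D4:**
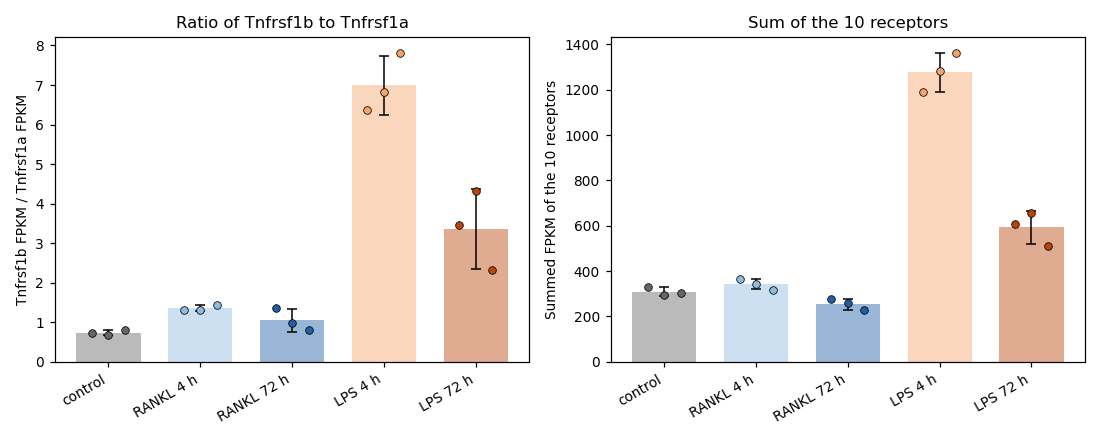
Left, ratio of *Tnfrsf1b* to *Tnfrsf1a* FPKM, and right, the summed FPKM of the 10 receptors. Bars are group means, error bars SD and points samples (n = 3). The mean ratio was 0.738 in control and 6.998 in LPS 4 h, and the mean sum 309 and 1276.5 FPKM.

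Ligands of the receptors, listed for all of them but *Tnfrsf21*, were measured in the same samples. The counts of this and the following lists are to be read against the 2.56%, 29.2%, 49.8% and 31% of all genes changed in RANKL 4 h, RANKL 72 h, LPS 4 h and after 72 h of LPS. Of 9 listed ligands, 8 were tested, and *Cd40lg*, the ligand of CD40, was too low (mean 0.0311 FPKM). In the LPS 4 h group, 4 were higher and 2 lower, at a median log2 fold change of 1.28 against -0.52 over all genes, of which 8.75% were higher and 41% lower. *Tnf*, the ligand of both TNF receptors, rose from 18.6 ± 4.28 to 1969.7 ± 455 FPKM, a log2 fold change of 6.72 (limma adjusted p = 4.44e-10). *Tnfsf9*, the ligand of *Tnfrsf9*, rose from 4.50 to 189.6 FPKM, and *Tnfsf10* (TRAIL), the ligand of *Tnfrsf10b*, from 2.86 to 19.4 FPKM. *Tnfsf12* (TWEAK), the ligand of *Tnfrsf12a*, fell from 15.5 to 5.86 FPKM, at a log2 fold change of -1.39, and *Tnfsf14* (LIGHT) fell from 3.53 to 2.05 FPKM, at -0.81 (limma adjusted p = 0.0565). *Lta*, at 0.284 FPKM in control and 1.46 FPKM in LPS 4 h, was also higher.

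The median of the ligands was -0.016 in RANKL 4 h, -0.32 in RANKL 72 h and 0.13 in LPS 72 h, against 0.0016, 0.16 and 0.075 over all genes. With RANKL for 4 h, 1 ligand was higher and 2 lower by the unadjusted test, namely *Tnf* at 28.9 FPKM (0.65, limma adjusted p = 0.724), *Tnfsf10* (-1.35, adjusted p = 0.723) and *Tnfsf14* (-0.85, adjusted p = 0.853), and 0 passed after adjustment. In the RANKL 72 h group, 0 were higher and 3 lower, among them *Tnf*, which fell to 8.29 ± 1.53 FPKM (-1.15, limma adjusted p = 0.00299), *Tnfsf10* (-1.42, adjusted p = 0.0426) and *Tnfsf14* (-1.05, adjusted p = 0.034). In LPS 72 h, 3 were higher and 3 lower, also without replicate 3. *Tnf* stood at 58.1 ± 18.8 FPKM there (1.61, limma adjusted p = 0.000213), *Tnfsf9* at 14.0 FPKM (1.62, adjusted p = 0.00587) and *Lta* at 1.39 FPKM (1.98, adjusted p = 0.00224). *Tnfsf10* (-2.12), *Ltb* (-1.28, limma adjusted p = 0.105) and *Tnfsf12* (-0.83) were lower. Without replicate 3, *Tnf* was 1.83 higher, *Tnfsf9* 1.60 and *Lta* 2.18, and *Tnfsf10* was at -2.40, *Ltb* at -1.70 (limma adjusted p = 0.0455) and *Tnfsf12* at -0.78. *Fasl*, the ligand of *Fas*, was at 0.122 to 0.378 FPKM in the group means and passed in none of these comparisons.

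**Figure D5:**
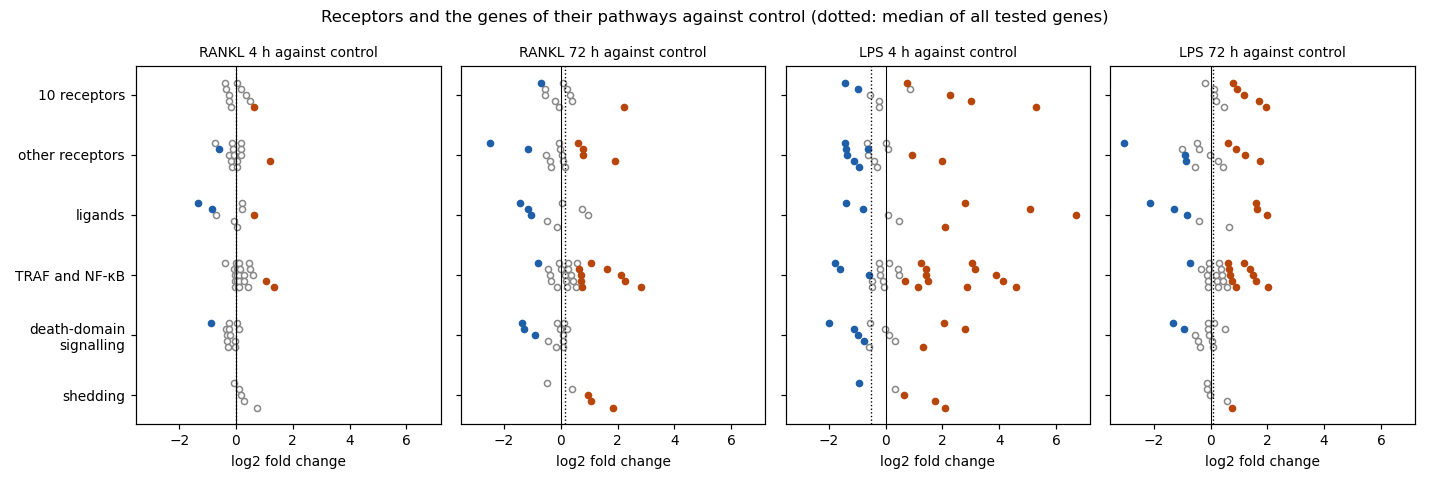
Log2 fold change against control of the 10 receptors, other receptors of the superfamily, listed ligands, TRAF and NF-κB genes, death-domain signalling genes and receptor shedding genes. Each point is a gene, filled where it passed the fold and unadjusted p thresholds (orange higher, blue lower), and the dotted line is the median of all tested genes. Of the 25 TRAF and NF-κB genes, 12 lay above control in LPS 4 h past the thresholds.

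Of the TRAF adaptors and NF-κB regulators downstream of these receptors, all 25 were tested. In the RANKL 4 h group, 2 were higher and 0 lower, *Nfkb2*, the precursor of the non-canonical NF-κB subunit p52, at 1.05 (limma adjusted p = 0.0449) and its partner *Relb* at 1.33 (adjusted p = 0.112). Given RANKL for 72 h, 9 were higher and 1 lower, with the largest values for the adaptor *Traf1* (2.18 to 15.7 FPKM, log2 fold change 2.84), *Nfkb2* (2.24) and the ubiquitin ligase *Birc3* (2.11, limma adjusted p = 1.32e-06). After 4 h of LPS, 12 were higher and 3 lower, with 49.8% of all genes changed (8.75% higher, 41% lower). *Traf1* stood there at 4.60 (2.18 to 53.3 FPKM), *Tnfaip3*, the NF-κB inhibitor A20, at 4.14 (18.9 to 335 FPKM) and *Nfkb2* at 3.89. With LPS for 72 h, 10 were higher and 1 lower, and *Traf1*, *Birc3* and *Nfkb2* stood at 2.03, 1.58 and 1.49. The list's median was 0.10, 0.35, 0.47 and 0.39 in these comparisons, in the same order, against 0.0016, 0.16, -0.52 and 0.075 over all genes. *Tnfaip3* did not pass in RANKL 72 h (-0.06) or in LPS 72 h (0.38, limma adjusted p = 0.109), but passed there without replicate 3 (0.60, adjusted p = 0.00517). Without that replicate, 13 of the 25 were higher and 1 lower, and *Traf1*, *Birc3* and *Nfkb2* stood at 2.32, 1.65 and 1.58.

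Death-domain signalling was covered by a list of 12 genes. Given RANKL for 4 h, 0 were higher and 1 lower, *Daxx* at -0.86 (limma adjusted p = 0.664). In RANKL 72 h, 0 were higher and 3 lower, namely *Daxx* (-1.35), *Mlkl*, the effector of necroptosis (-1.30, from 41.2 to 16.5 FPKM), and *Bid*, a link of caspase-8 to the mitochondrion (-0.89). In LPS 4 h, 3 were higher and 4 lower, with 49.8% of all genes changed (8.75% higher, 41% lower). *Cflar*, the inhibitor of caspase-8 known as FLIP, rose from 17.5 ± 2.08 to 121 ± 14.2 FPKM (2.78, limma adjusted p = 1.49e-08) and *Daxx* by 2.06, and the adaptor *Cradd* fell by 2.01. In the LPS 72 h group, 0 were higher and 2 lower, *Daxx* (-1.32) and the adaptor *Fadd* (-0.95, limma adjusted p = 0.0218). Without LPS 72 h replicate 3, 1 was higher and 1 lower, *Daxx* was at -1.34, and *Fadd*, at -0.48, was not called. The median log2 fold change of the list was -0.26 in RANKL 4 h, -0.078 in RANKL 72 h, -0.29 in LPS 4 h and -0.082 in LPS 72 h, against 0.0016, 0.16, -0.52 and 0.075 over all genes.

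Some receptors of this family, not all, are cleaved from the cell surface by the protease ADAM17. The inactive rhomboids *Rhbdf1* and *Rhbdf2* bring ADAM17 to the surface, and *Timp3* inhibits it. Of 5 shedding genes, 0 changed in RANKL 4 h. With RANKL for 72 h, 3 were higher, with 29.2% of all genes changed, namely *Adam17* (30.3 to 58.6 FPKM, 0.95, limma adjusted p = 0.000166), *Rhbdf1* (1.05) and *Timp3* (1.85, adjusted p = 0.0399), the last with values of 12.9 to 76.3 FPKM. With LPS for 4 h, 3 were higher and 1 lower, with 49.8% of all genes changed (8.75% higher, 41% lower). *Rhbdf2* stood there at 2.08 (23.5 to 99.7 FPKM, limma adjusted p = 1.94e-09), *Timp3* at 1.74 and *Adam10* at -0.96, beside *Adam17* at 0.64. After 72 h of LPS, 1 was higher, *Rhbdf2* at 0.76 (limma adjusted p = 4.63e-05; 0.79 without replicate 3), and 0 were lower. The list's median was 0.18, 0.95, 0.64 and -0.031 in the 4 comparisons, against 0.0016, 0.16, -0.52 and 0.075 over all genes.

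Of 18 other receptors of the superfamily, 14 were tested, and *Tnfrsf17*, *Tnfrsf19*, *Ngfr* and *Edar* were too low. In RANKL 4 h, 1 was higher and 1 lower, *Tnfrsf11b* at 1.22 (limma adjusted p = 0.264) and *Relt* at -0.60 (adjusted p = 0.966). In the RANKL 72 h group, 4 were higher and 2 lower. *Tnfrsf11b*, the decoy receptor osteoprotegerin that binds RANKL, rose by 1.93 (0.595 to 2.57 FPKM, limma adjusted p = 0.000589), *Tnfrsf11a* (RANK) rose by 0.79 (16.6 to 28.9 FPKM, adjusted p = 0.00427), and *Tnfrsf26* fell by 1.16. In the LPS 4 h group, 2 were higher and 6 lower, with 8.75% of all genes higher and 41% lower, among them *Relt* (-1.42), *Tnfrsf26* (-1.36) and *Tnfrsf22* (-1.12). In LPS 72 h, 4 were higher and 3 lower, with *Tnfrsf23* at 1.73, *Tnfrsf26* at 0.91 and *Tnfrsf11a* at -0.92 (limma adjusted p = 0.00127). Without replicate 3, 4 were higher and 3 lower, with *Tnfrsf23* at 1.81, *Tnfrsf26* at 1.32 and *Tnfrsf11a* at -1.01. The median of these 14 was -0.087, 0.012, -0.62 and -0.20 in the 4 comparisons, against 0.0016, 0.16, -0.52 and 0.075 over all genes. *Tnfrsf22*, *Tnfrsf23* and *Tnfrsf26* are closely related genes, so the split of reads among them is uncertain. In RANKL 72 h, where *Tnfrsf11b* rose, 14 of 18 stromal markers were higher as well, and their part in its rise was not tested.

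The genes whose pattern over the 15 samples was most like that of each receptor were found by Pearson's r on log2(FPKM + 0.1) among 9486 genes of 1 FPKM or more on average. These values are a description, since the samples fall into 5 groups. *Tnfrsf1b* was nearest to *Clec4e* (r = 0.981) and *Il6* (0.978), *Cd40* to *Cflar* (0.976) and *Adora2a* (0.975), and *Fas* to *Dram1* (0.965) and *Samsn1* (0.964). *Ltbr* was nearest to *Mfsd5* (0.978) and *Tmem126a* (0.975), and *Tnfrsf21* to *Ccdc125* (0.976) and *Coprs* (0.970). *Tnfrsf10b* was nearest to *Echdc1* (0.929), *Tnfrsf9* to *Ddit4* (0.921), *Tnfrsf14* to *Gbgt1* (0.901), *Tnfrsf1a* to *Shisa5* (0.889) and *Tnfrsf12a* to *Bet1l* (0.859). Among the 10 receptors, *Cd40* and *Fas* had the highest r (0.905), followed by *Cd40* and *Tnfrsf1b* (0.881), *Tnfrsf1b* and *Fas* (0.878) and *Ltbr* and *Tnfrsf21* (0.877), and *Cd40* and *Tnfrsf21* the lowest (-0.80).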

How the data were processed

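RNA-seq of BMDMs was analysed in 15 samples, 3 in each of 5 groups, with groups and replicate numbers taken from the sample titles. The authors deposited FPKM values, which by their methods came from StringTie and Ballgown. The submitters' processing notes name GRCm38.p4 and mm10, and the aligner is not given in the sources used here. RNA libraries were made with a SMARTer mRNA-seq kit. The table holds 20089 complete entries (4453 at 0 in every sample). It has 1 incomplete entry, for *Ttk*, and genes after it in alphabetical order were not analysed here. It holds no columns of the authors' comparisons.

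FPKM values of a gene are whole multiples of a step, and whole fragments were recovered for 14485 of 14485 genes above 0 in at least 3 samples (tolerance 0.01 of a fragment). Depth was 18306184 to 20330207 fragments per sample (median 19351141), and the worth of a fragment differed by a factor of at most 1.098 between samples. Amplified fragments are not independent molecules, so counting error is the least that the error can be.

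In R 4.3.3, limma 3.58.1 (lmFit, then eBayes with trend) was fitted once to log2(FPKM + 0.1) of all 5 groups, for the 11743 genes whose mean was 0.1 FPKM or more. Changed genes had an unadjusted p under 0.05 and a fold over 1.5 or under 0.66, the thresholds that the authors' methods give for edgeR. Since FPKM are not counts, a count model was only an alternative (limma voom on the recovered fragments). The script was tested on simulated data. Other alternatives were the pseudocount, the filter, the scaling, the groups in the fit, the trend, the adjustment of p, a replicate block, a stromal covariate and leaving out each sample.

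Named were all 10 receptors, up to 3 changed members with a mean of at least 1 FPKM of each other list, the ligands, and the nearest patterns. The rule for the members names genes and uses no measured value, but members, lists and rules were chosen with earlier results of these data known. The numbers of the replicates were checked for pairing on 9486 genes, by the lowest correlation of the deviations of same-numbered samples. With control it was 0.707 for RANKL 4 h, 0.440 for LPS 4 h and 0.136 for RANKL 72 h. It was 0.555 for RANKL with LPS at 4 h and 0.162 for the pair of RANKL times, and all of these were above 0.1. The lowest correlation was -0.0299, -0.229 and -0.151 between LPS 72 h and control, RANKL 72 h and LPS 4 h, respectively. The labels do not say what a number stands for. The reported fit did not pair the samples, and the replicate number entered only as a block in an alternative. Replicates differed beyond sampling noise in every group (median chi-square 7.49 to 52.7 times that of sampling).

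Promoters were those of RefSeq on GRCm38.p6. Calculations used Python 3.11.15, numpy 2.4.6, pandas 2.3.3, scipy 1.17.1 and matplotlib 3.10.9.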

Additional observations from a re-analysis of the deposited data

Results flagged for a closer look

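The difference between stimuli at the same time, and between times of the same stimulus, was tested directly by limma contrasts, and 22 such differences of single receptors passed the fold threshold and an adjusted p under 0.05. They are given on the log2 scale, without an account of their cause. Each of the 10 receptors was tested in each of these contrasts. By the same thresholds, 50% of all tested genes passed for RANKL against LPS at 4 h and 36.1% at 72 h. For 72 h against 4 h, 23.3% of all tested genes passed under RANKL and 58.1% under LPS. The 22 differences were not tested as a set against these shares.

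Between RANKL and LPS at 4 h, the difference (RANKL minus LPS) was 1.60 for *Tnfrsf21*, 1.01 for *Ltbr*, -2.51 for *Fas*, -2.39 for *Tnfrsf1b*, -1.11 for *Tnfrsf14* and -4.94 for *Cd40*. At 72 h it was -0.66 for *Tnfrsf21*, -0.84 for *Fas*, -2.03 for *Tnfrsf1b*, -1.38 for *Cd40* and -1.15 for *Ltbr*. *Tnfrsf21* and *Ltbr* were thus higher under RANKL than under LPS at 4 h and lower at 72 h. Against control, they differed by 0.17 and 0.023 in RANKL 4 h, not called, and by -1.43 and -0.99 in LPS 4 h. *Ltbr* at 4 h was not called when centred on the median gene. *Tnfrsf21* at 72 h was not called without RANKL 72 h replicate 3 (-0.52) or with samples scaled to equal sums. The groups overlapped for *Cd40* at 72 h, and its adjusted p was 0.0863, 0.0815 and 0.0902 without RANKL 72 h replicate 1, LPS 72 h replicate 1 and LPS 72 h replicate 2.

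Between 72 h and 4 h of RANKL, the difference (72 h minus 4 h) was -0.71 for *Tnfrsf21*, -0.71 for *Tnfrsf1b*, -0.71 for *Ltbr* and 2.60 for *Tnfrsf9*. Between 72 h and 4 h of LPS it was 0.70 for *Tnfrsf10b*, 1.56 for *Tnfrsf21*, -1.36 for *Fas*, -1.06 for *Tnfrsf1b*, 1.05 for *Tnfrsf12a*, -4.11 for *Cd40* and 1.46 for *Ltbr*. Whether the change with time differed between RANKL and LPS was not tested. Groups of 3 samples were not tested for outliers.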

How the results depend on the processing

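Of the values of single receptors under the alternatives, 1374 stayed on the same side of the threshold, 29 passed it only in the alternative and 36 lost it. Of the 1374, 31 changed sign without being called in either fit, all with reported sizes of at most 0.52 on the log2 scale. A further value changed sign and was called in the alternative, *Tnfrsf1a* in LPS 72 h against LPS 4 h, at 0.04 and not called, which became -0.61 when samples were centred on the median gene. Of the counts, 275 stayed within 1.5 times the reported value and 13 did not. With RANKL for 4 h, 301 genes were changed, 189 with a pseudocount of 1 and 14 by adjusted p, and the single receptor became 0 by adjusted p, with a range of 0 to 1 when each sample was left out (0 without control replicate 2). Given RANKL for 72 h, the 2 changed receptors became 1 with samples scaled to equal sums, 4 when centred and 4 with the stromal covariate. The 3431 changed genes became 3861, 3156 and 3946 in these settings, respectively. After 4 h of LPS, 5846 changed genes became 3724 when centred. For RANKL 4 h against LPS 4 h, 6082 became 3792 (1728 higher and 2064 lower, in place of 4989 and 1093). With LPS for 72 h, the 5 changed receptors became 3 by adjusted p and 3 to 5 when each sample was left out. Centring compares each gene with the median gene, by construction. The cause of the other changes was not tested. With the replicate number as a block, 360 genes were changed in RANKL 4 h, 3600 in RANKL 72 h, 6000 in LPS 4 h and 3767 in LPS 72 h against control, and of the receptors only the call of *Tnfrsf12a* in RANKL 4 h against LPS 4 h changed (0.73). *Tnfrsf9* and *Tnfrsf10b* rest on few fragments, at 24 to 441 and 62 to 139 per sample, and the part of counting error in their spread was not tested.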
